A study of Homo sapiens with 6 samples.

Results

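FBXW7, MAP2K4, BCL2L11, ITGA5 and ITGAV are published targets of the microRNAs miR-25, miR-92a, miR-92b, miR-363 and miR-367, which share 1 seed on their 3p arms. The 5 genes are the members examined here, out of 16199 genes in the count table, and all 5 were measured in all 6 libraries. They were chosen by symbol, and the microRNA family itself was selected on these data, because genes with its sites ranked high in both edited genotypes against wild type. For that reason the values of the 5 genes against wild type are given as a description, with no test. The contrast of homozygous with hemizygous cells was not itself used in the choice and was tested. It shares the edited libraries with the contrasts that were used, so it is not independent of them.

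The cells were H1, an established human embryonic stem cell line, edited with CRISPR-Cas9 in DICER1, the enzyme that cuts microRNAs out of their hairpin precursors. The 3 genotypes were homozygous for the protein change S1344L, which the study describes as a cancer hotspot, hemizygous for S1344L, and wild type, with 2 RNA-seq libraries each. The labels do not say how the second DICER1 copy was altered in hemizygous cells, nor whether the libraries of a genotype are separate clones or cultures, so the p-values below reflect only how far these libraries spread, which may be technical. The libraries held 46152759 and 39565897 counts in homozygous cells, 39693194 and 51598026 in hemizygous cells, and 52924532 and 38164848 in wild-type cells. Gene counts do not show the edited base, and DICER1 itself averaged 123.4 ± 7.80 CPM (counts scaled for the size of the library) in homozygous, 107.4 ± 15.6 in hemizygous cells and 147.7 ± 30.6 in wild-type cells (SD, n = 2 each).

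The cells carried the marks of their label. All 10 stem cell markers looked for were in the table, and their summed level was 8566.8 to 9013.4 CPM in homozygous, 8862.1 to 9329.0 in hemizygous and 7974.2 to 8156.7 in wild-type libraries. Of markers of other cell types, 2 of 6 for neural ectoderm, 3 of 6 for primitive streak and mesoderm, 1 of 6 for endoderm, 5 of 8 for fibroblasts and 2 of 7 for trophoblast and amnion were in the table, and the rest were not analysed here. The fibroblast markers, some of which stem cell cultures also express, summed to 631.0 to 677.0 CPM in homozygous, 706.4 to 825.8 in hemizygous and 789.6 to 863.3 in wild-type libraries. Neural ectoderm markers, OTX2 and ZIC1, summed to 38.4 to 39.4 CPM in homozygous, 54.7 to 71.3 in hemizygous and 28.3 to 30.6 in wild-type libraries, mostly through ZIC1 at 28.1 ± 0.1 CPM in homozygous, 49.9 ± 12.6 in hemizygous and 17.1 ± 1.14 in wild-type cells (SD, n = 2 each). Markers of mesoderm summed to 9.34 to 9.97 CPM in homozygous, 6.36 to 9.17 in hemizygous and 7.37 to 7.67 in wild-type libraries. The single endoderm marker, CXCR4, lay at 1.21 to 1.54 CPM in homozygous, 1.06 to 1.96 in hemizygous and 0.895 to 2.16 in wild-type libraries. Trophoblast and amnion markers summed to 10.8 to 15.9 CPM in homozygous, 14.2 to 20.1 in hemizygous and 15.3 to 23.6 in wild-type libraries. In bulk libraries fewer cells of a type and less RNA per cell cannot be told apart. The libraries also differed by replicate number. Principal components were taken from the genes that varied most across libraries, and the first held 61.3% of their variance. Homozygous 1 and 2 lay on it at 4.08 and 20.9. Hemizygous 1 and 2 lay at -30.0 and 17.2, and wild type 1 and 2 at -28.3 and 16.2.

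A microRNA guides an Argonaute protein to messenger RNAs whose 3' UTR pairs with its seed, bases 2 to 8 from the 5' end, and the paired messenger is translated less and often decays faster. DICER1 leaves a duplex from whose 5p or 3p strand the mature microRNA is taken. In this family the working strand is usually the 3p strand. In embryonic stem cells miR-367 is made from the same primary transcript as the miR-302 microRNAs, and miR-92a and miR-363 come from the miR-17-92 and miR-106a-363 clusters. The mature microRNAs were not measured in these libraries.

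The family's mature microRNAs are shown because their common seed, in capitals, fixes the sites searched for below. The sequences are from RefSeq (GRCh38.p14), and the 5 names of the rule come from 6 genes, since miR-92a-3p is made from a gene on chromosome 13 and another on X.
hsa-miR-25-3p: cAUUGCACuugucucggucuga
hsa-miR-92a-3p: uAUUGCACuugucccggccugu
hsa-miR-92b-3p: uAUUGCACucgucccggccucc
hsa-miR-363-3p: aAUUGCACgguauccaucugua
hsa-miR-367-3p: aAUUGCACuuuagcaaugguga
hsa-miR-32-5p: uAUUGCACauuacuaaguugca
miR-32-5p, from the opposite arm and not part of the rule, carries the same 7 bases. The 6 sequences differ outside the seed.

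A site for this seed reads GTGCAAT in the DNA letters of the messenger strand. An A after it makes an 8-mer, its absence a 7-mer-m8, and a match to bases 2 to 7 followed by A, TGCAATA with no G before it, a 7-mer-A1. Only the messenger strand of the longest annotated 3' UTR of each gene was searched (GENCODE release 29, GRCh38). The 11 sites of the 5 genes are printed with 14 bases before each match, because they show what the members have in common, with the match in capitals.
FBXW7 site at base 286: ctaaatcaaaccagGTGCAATt
FBXW7 site at base 407: acctagaaaggaacTGCAATA
FBXW7 site at base 1596: ttcttataacttaaGTGCAATA
MAP2K4 site at base 105: cgcccagacaccatGTGCAATA
MAP2K4 site at base 508: actttcttcaccaaGTGCAATA
BCL2L11 site at base 2961: agccaaatgtctgtGTGCAATt
BCL2L11 site at base 4400: ttgccactttacttGTGCAATA
ITGA5 site at base 989: aaactctgttgcaaGTGCAATA
ITGAV site at base 1443: ttatacctatttttGTGCAATt
ITGAV site at base 3080: agaaatatgcagcaTGCAATA
ITGAV site at base 3176: gtcattgttctcaaGTGCAATA
All 5 genes hold at least 1 8-mer, and MAP2K4 holds 2 with no other site. ITGA5 has its single site in the last bases of a short 3' UTR, while FBXW7 and ITGAV have 3 sites each.

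The printed windows lie at chr4:152322588-152322609, chr4:152322468-152322488 and chr4:152321278-152321299 on the minus strand for FBXW7, in the order given. Those of MAP2K4 lie at chr17:12141351-12141372 and chr17:12141754-12141775 on the plus strand. Those of BCL2L11 lie at chr2:111166912-111166933 and chr2:111168351-111168372 on the plus strand. The ITGA5 window lies at chr12:54395297-54395318 on the minus strand. Those of ITGAV lie at chr2:186678721-186678742, chr2:186680358-186680378 and chr2:186680454-186680475 on the plus strand. All are exonic and in the 3' UTR of the transcript searched, but not of every isoform. The sites are in 5 of 7 annotated transcripts with a 3' UTR for FBXW7, 2 of 2 for MAP2K4, 8 of 13 for BCL2L11, 1 of 2 for ITGA5 and 2 of 4 for ITGAV, and counts per gene do not tell isoforms apart.

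**Figure D1:**
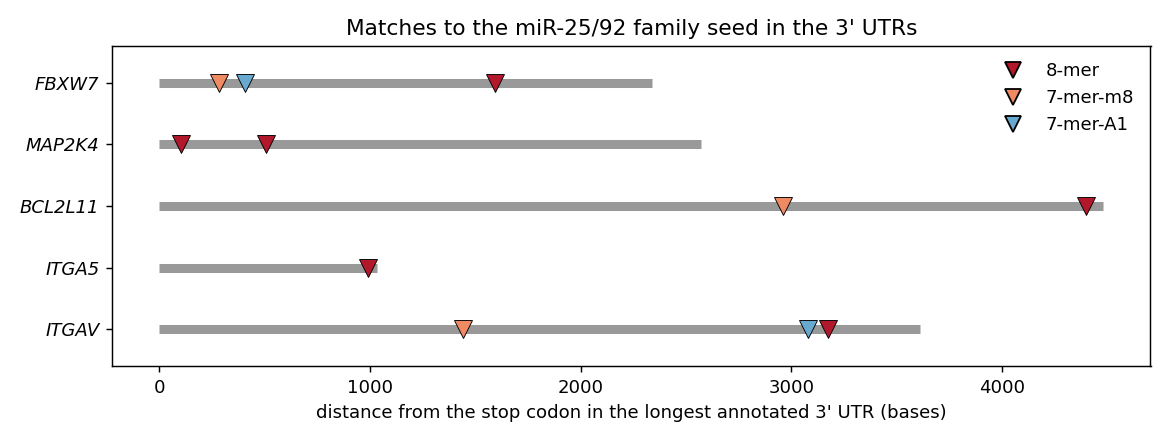
Matches to the miR-25/92 family seed in the longest annotated 3' UTR of each of the 5 genes, with the distance from the stop codon in bases on the x axis and the type of match by colour. The grey bars run to 2337 bases for FBXW7, 2570 for MAP2K4, 4480 for BCL2L11, 1032 for ITGA5 and 3609 for ITGAV, and every bar carries at least 1 8-mer.

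The map of matches shows how differently the sites are placed. BCL2L11 has both its sites in the last part of a 4480-base 3' UTR, with the 8-mer 73 bases from its end, and the ITGA5 8-mer ends 36 bases from its end. Both MAP2K4 sites lie nearer the stop codon than the end of the 3' UTR. The 3' UTR of ITGAV was the poorest in G and C at 29.6% and that of ITGA5 the richest at 55.6%. Among 13195 genes with an annotated 3' UTR of at least 30 bases, 13.2% hold GTGCAAT, 3.87% hold the 8-mer and 2.14% hold at least 2 matches to bases 2 to 8, which 4 of the 5 members do. The members were taken from published targets, for which such a site is usually part of the evidence, so these shares describe the list and test nothing.

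The seeds of 6 other microRNA families were searched for in the same way. BCL2L11 alone held a match for miR-302a-3p (AGCACTT, in 25.2% of 3' UTRs), for miR-17-5p (GCACTTT, in 25.3%) and for miR-19b-3p (TTTGCAC, in 16.1%). The first 2 of these motifs share 6 letters in a row, so 1 stretch can match both, and the miR-19b-3p motif ends in the letters with which that of miR-17-5p begins. FBXW7 held 2 matches for miR-200c-3p (CAGTATT, in 19.5%). BCL2L11 and ITGA5 held a match for miR-30a-5p (TGTTTAC, in 18.7%), and none of the 5 held one for let-7a-5p (CTACCTC, in 11.3%).

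FBXW7, on the minus strand of chr4:152320544-152536063, encodes the F-box protein that presents cyclin E, MYC, JUN and NOTCH1 to an SCF ubiquitin ligase for destruction. It had 37.6 and 40.3 CPM in homozygous 1 and 2, 52.2 and 39.2 in hemizygous 1 and 2, against 43.1 and 38.5 in wild type 1 and 2. Hemizygous 1 stood above the other 5 libraries, which lay between 37.6 and 43.1, and the ranges of all 3 genotypes overlapped. On the log2 scale FBXW7 differed by -0.07 ± 0.17 (SE) in homozygous against wild-type cells and by 0.16 ± 0.17 in hemizygous against wild-type cells. Homozygous against hemizygous cells gave -0.23 ± 0.17, a change of -14.7% with a 95% interval of -35.9% to 13.5%, and edgeR's quasi-likelihood test did not call it (adjusted p = 0.999). Without hemizygous 1 that difference was -0.006, and the difference of hemizygous from wild-type cells was -0.05.

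MAP2K4, on the plus strand of chr17:12020824-12143830, encodes MKK4, a kinase that activates the stress kinases JNK and p38. It had 57.9 and 48.2 CPM in homozygous 1 and 2, 72.3 and 50.3 in hemizygous 1 and 2, against 61.6 and 49.3 in wild type 1 and 2. The replicate 1 libraries were the 3 highest of the 6, and the genotypes overlapped throughout. The log2 difference was -0.07 ± 0.22 (SE) in homozygous and 0.14 ± 0.22 in hemizygous cells, both against wild type. In homozygous against hemizygous cells it was -0.21 ± 0.22 (95% interval -39.6% to 24.0%), which edgeR's quasi-likelihood test did not call (adjusted p = 0.999). That value reversed to 0.076 without hemizygous 1. The difference of hemizygous from wild-type cells was -0.13 without the same library, and that of homozygous from wild-type cells was 0.11 without wild type 1.

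BCL2L11, on the plus strand of chr2:111119378-111168447, encodes BIM, a BH3-only protein that binds the survival proteins of the BCL2 family and promotes apoptosis. It had 42.3 and 36.4 CPM in homozygous 1 and 2, 42.7 and 37.7 in hemizygous 1 and 2, against 35.5 and 33.6 in wild type 1 and 2. All 4 edited libraries lay above both wild-type libraries, the nearest being homozygous 2 at 36.4 CPM and wild type 1 at 35.5 CPM, while the edited genotypes overlapped each other. BCL2L11 was the only member above wild type in both edited genotypes, by 0.19 ± 0.14 (SE) in homozygous and 0.22 ± 0.14 in hemizygous cells on the log2 scale, a change of 13.9% and 16.3%. The values were 0.074 without homozygous 1 and 0.132 without hemizygous 1. The gap between the nearest edited and wild-type libraries, 36.4 and 35.5 CPM, is about the size of their counting errors of 2.60% and 2.33%. Both contrasts share the wild-type libraries, and both were among the values on which the family was chosen. In homozygous against hemizygous cells the log2 difference was -0.03 ± 0.14 (95% interval -22.9% to 24.3%; adjusted p = 0.999, edgeR's quasi-likelihood test). It changed sign to 0.065 without hemizygous 1 and to 0.074 without homozygous 2. The sums of stem cell and of neural ectoderm markers were also higher in both edited genotypes, as given above. Of the 10 stem cell markers, 8 were above wild type in homozygous and 9 in hemizygous cells. OTX2 was below wild type in homozygous cells, at 10.8 ± 0.848 against 12.3 ± 0.473 CPM, so there the neural ectoderm sum rose through ZIC1. The part of these markers in the BCL2L11 values was not tested.

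ITGA5 encodes the integrin chain that pairs with beta 1 as the main fibronectin receptor, and lies on the minus strand of chr12:54395261-54419460. It had 41.3 and 40.9 CPM in homozygous 1 and 2, 47.7 and 44.4 in hemizygous 1 and 2, against 46.6 and 42.6 in wild type 1 and 2. Both homozygous libraries were below the other 4, and hemizygous and wild-type libraries overlapped. The nearest of them, homozygous 1 at 41.3 and wild type 2 at 42.6 CPM, had counting errors of 2.31% and 2.45%, about the size of the gap. The log2 difference was -0.12 ± 0.13 (SE) in homozygous and 0.05 ± 0.13 in hemizygous cells, both against wild type. The value in homozygous cells was -0.044 without wild type 1, and that in hemizygous cells ranged from -0.006 without wild type 2 to 0.118 without wild type 1. Homozygous against hemizygous cells differed by -0.16 ± 0.13, or -10.7% (95% interval -27.6% to 10.1%), which edgeR's quasi-likelihood test did not call (adjusted p = 0.999), and the value stayed between -0.21 and -0.11 when any 1 library was left out.

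ITGAV encodes the alpha V chain, which pairs with several beta chains to bind vitronectin and fibronectin and to release TGF-beta from its latent form, and lies on the plus strand of chr2:186590065-186680901. It had 123.3 and 104.4 CPM in homozygous 1 and 2, 170.4 and 113.9 in hemizygous 1 and 2, against 157.1 and 110.4 in wild type 1 and 2. Hemizygous 1 and wild type 1 stood well above the other 4 libraries, and all genotypes overlapped. The log2 difference was -0.23 ± 0.25 (SE) in homozygous and 0.09 ± 0.25 in hemizygous cells, both against wild type. These values were 0.051 without wild type 1 and -0.22 without hemizygous 1. ITGAV differed in homozygous against hemizygous cells by -0.32 ± 0.25 (95% interval -47.1% to 21.3%; adjusted p = 0.999, edgeR's quasi-likelihood test), and by 0.001 without hemizygous 1.

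**Figure D2:**
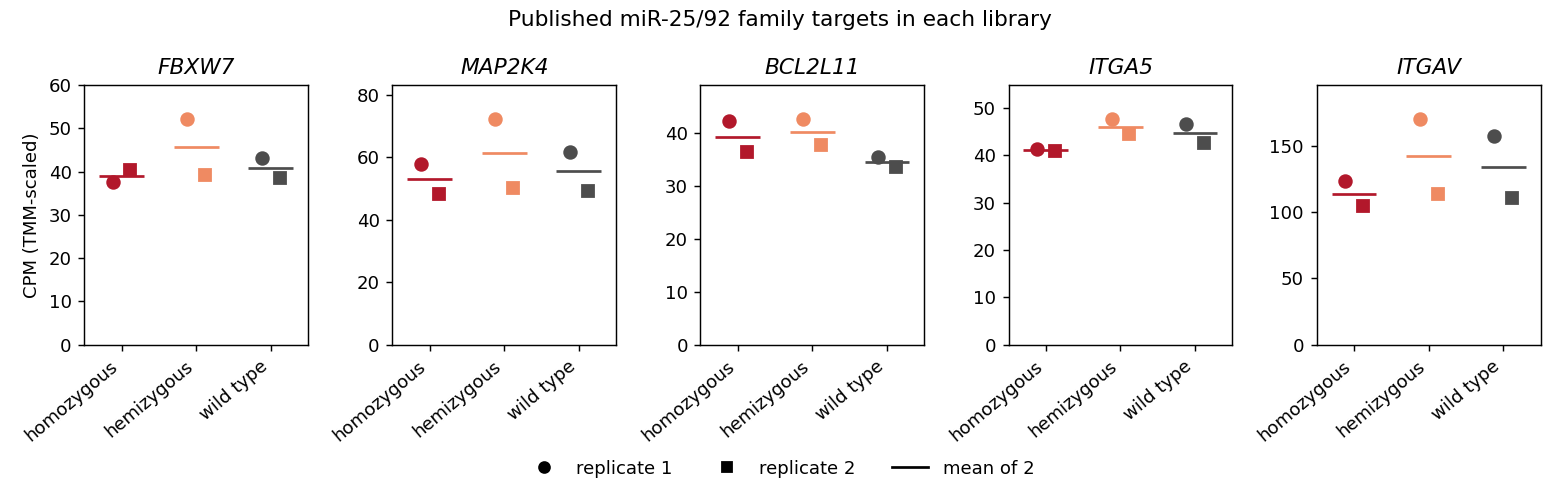
Level of each of the 5 genes in CPM (linear axis from 0, scaled by library size) in every library of homozygous, hemizygous and wild-type cells, with circles for replicate 1, squares for replicate 2 and a line for the mean of 2. The BCL2L11 points of both edited genotypes lie above those of wild type, the ITGA5 points of homozygous cells lie below the rest, and replicate 1 is above replicate 2 in every genotype for all members but FBXW7.

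In homozygous against hemizygous cells edgeR called no member at an adjusted p under 0.05, and 0% of all genes were called there or in the contrasts of either edited genotype with wild type. At an unadjusted p under 0.05 edgeR gave 2.69% of all genes (435) in homozygous against wild-type, 0.870% (141) in hemizygous against wild-type and 0.765% (124) in homozygous against hemizygous cells, with no member among the last. DESeq2 called 0.0617% of genes (10) in homozygous against wild-type, 0.0432% (7) in hemizygous against wild-type and 0.0617% (10) in homozygous against hemizygous cells, again with no member among the last. With the replicate number as a block, edgeR called 0 genes in homozygous against wild-type, 1 in hemizygous against wild-type and 1 in homozygous against hemizygous cells. Many more of the 16199 genes had an unadjusted p under 0.05 in edgeR's blocked fit. They were 844 higher and 1098 lower in homozygous against wild-type cells, and 332 and 284 in hemizygous against wild-type cells. Homozygous against hemizygous cells had 534 higher and 794 lower. The SEs and intervals given for the members come from the fit without the block. A permutation test of a single gene over 2 libraries against 2 cannot give a p below 0.333.

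In homozygous against hemizygous cells all 5 members had a log2 difference below 0, with a median of -0.21, beside a median of 0 over all genes, of which 49.9% lay above 0. One member, ITGA5, was lower with no overlap between the genotypes, as were 10.4% of all genes, and no member was higher with no overlap, as were 11.0%. The median of the 5 ranged from -0.42 to 0.001 when 1 library was left out, and it was at 0.001 without hemizygous 1. Within replicate number 1 the homozygous over hemizygous log2 ratio was below 0 for all 5, and within number 2 for all but FBXW7, at 0.041. Summed fibroblast markers were lower in homozygous than in hemizygous libraries, at 631.0 to 677.0 against 706.4 to 825.8 CPM. Of these, 4 of 5 were below 0 on the log2 scale and THY1 was at 0.027. Summed neural ectoderm markers were also lower, at 38.4 to 39.4 against 54.7 to 71.3 CPM. The part of either set in the member values was not tested.

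Against wild type the values chose the family and are listed only as a description. In homozygous cells 1 of 5 members was above 0, with a median of -0.07, where 49.3% of all genes were above 0. The 2 genotypes did not overlap for BCL2L11, which was higher as 14.2% of all genes were, nor for ITGA5, which was lower as 13.6% were. In hemizygous cells 5 of 5 were above 0, with a median of 0.14, where 49.1% of all genes were. Only BCL2L11 had no overlap there and was higher, as were 8.13% of all genes, and none was lower without overlap, as were 9.21%. Without hemizygous 1 the hemizygous median was -0.05, and without wild type 1 the homozygous median was 0.051.

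**Figure D3:**
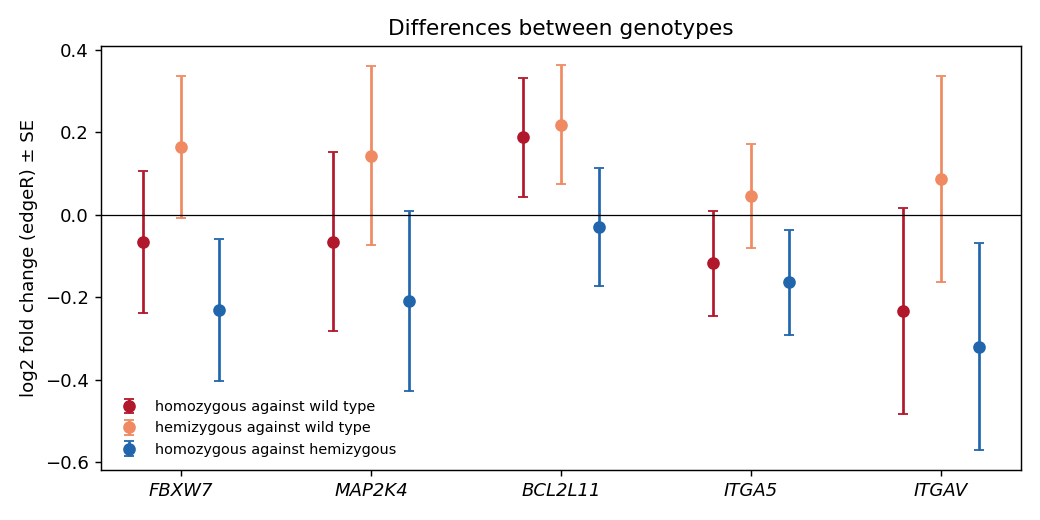
Log2 fold change of each of the 5 genes (y axis, edgeR, bars are 1 SE) in homozygous against wild-type, hemizygous against wild-type and homozygous against hemizygous cells. The homozygous against hemizygous points lie between -0.32 for ITGAV and -0.03 for BCL2L11, and BCL2L11 alone has both points against wild type above 0.

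Most members also differed by replicate number. Replicate 1 was above replicate 2 in all 3 genotypes for 4 of the 5 members, as for 29.9% of all genes. The fold of replicate 1 over 2 for ITGAV was 1.18 in homozygous, 1.5 in hemizygous and 1.42 in wild-type cells. For MAP2K4 it was 1.20 in homozygous, 1.44 in hemizygous and 1.25 in wild-type cells, and for ITGA5 it was 1.01 in homozygous, 1.07 in hemizygous and 1.09 in wild-type cells. FBXW7 was the exception, at 0.933 in homozygous, 1.33 in hemizygous and 1.12 in wild-type cells. Across the 6 libraries, log2 CPM of ITGAV had a correlation of -0.99 with the first principal component, MAP2K4 of -0.936, ITGA5 of -0.837, FBXW7 of -0.791 and BCL2L11 of -0.375. These are descriptions over 6 libraries, and the component was computed from the genes that varied most, not from all genes.

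Members moved together across libraries to unequal degrees. The Pearson correlation of log2 CPM over the 6 libraries was 0.962 for MAP2K4 and ITGAV and 0.873 for ITGA5 and ITGAV, while BCL2L11 had 0.192 with ITGA5 and 0.45 with ITGAV. Among 11472 genes of at least 5 CPM, those most like ITGAV were MYO6, GALNT7 and FAM91A1, each with r of at least 0.9989, and 999 genes had an r above 0.95 with it. Among those most like MAP2K4 were MED13 and ZFYVE9 (r of at least 0.9977), with 757 genes above 0.95. For BCL2L11 they were L1TD1, EFCAB14 and VPS8 (r of at least 0.9875), and 32 genes were above 0.95. For ITGA5 they were CASP2, MAP2 and PCGF6 (r of at least 0.9921), and for FBXW7 PCDHA3, GLRX2 and GDA (r of at least 0.9885).

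Per kilobase of annotated exon, ITGAV was the most abundant member, at 13.9 ± 1.63 CPM per kb in homozygous, 17.3 ± 4.87 in hemizygous and 16.3 ± 4.03 in wild-type cells (SD, n = 2 each). MAP2K4 came next, at 9.28 ± 1.20 CPM per kb in homozygous, 10.7 ± 2.71 in hemizygous and 9.71 ± 1.53 in wild-type cells. ITGA5 and BCL2L11 followed and did not differ beyond their spread in homozygous or hemizygous cells, where they lay between 5.43 and 6.08 CPM per kb. In wild-type cells ITGA5 was at 5.89 ± 0.374 and BCL2L11 at 5.19 ± 0.204 CPM per kb, a gap wider than either SD. FBXW7 was lowest, at 3.51 ± 0.173 in homozygous, 4.12 ± 0.831 in hemizygous and 3.68 ± 0.295 in wild-type cells. This order depends on the exon length, which joins the exons of all annotated isoforms and is longest for FBXW7, at 11095 bases. In CPM, FBXW7 averaged 39.0 in homozygous, 45.7 in hemizygous and 40.8 in wild-type cells. BCL2L11 averaged 39.3, 40.2 and 34.6 in the same order. The libraries do not keep strand, and exons of 4 members overlap a gene on the opposite strand: BCL2L11 shares 727 bases with MIR4435-2HG, FBXW7 127 with FBXW7-AS1, ITGAV 203 and ITGA5 48, so reads there cannot be assigned. Counts per library ran from 1313 to 8150 for the members, a counting error of 1.11% to 2.76%, which was below the SD between replicates in each genotype except for ITGA5 in homozygous cells.

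The wider set of genes with a family site shows what the choice rested on. GTGCAAT is in the 3' UTR of 1740 genes. Log2 fold changes were adjusted for 3' UTR length, G and C content and expression. Their mean in these genes exceeded that of the 11455 genes without the motif by 0.036 in homozygous against wild-type cells. Ranked by this difference over its standard error across genes, the motif came 10 among 16263 7-mers there. In hemizygous against wild-type cells the difference was 0.021 and the rank 22. Unadjusted values ran the other way in homozygous cells and the same way in hemizygous cells, both against wild type. In homozygous against wild-type cells the median was -0.039 with a site and -0.016 without, and 41.6% of genes with a site lay above 0 against 46.6% without. In hemizygous against wild-type cells the medians were 0.036 with a site and -0.0087 without, and 61.1% of genes with a site lay above 0 against 47.0%. Without hemizygous 1 those shares were 42.1% and 47.7%, and without wild type 1 the homozygous shares were 57.6% and 52.4%. The adjusted differences remained above 0 in each of these fits.

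In homozygous against hemizygous cells, a contrast that the choice did not use directly, the adjusted difference was 0.015 and the motif ranked 1117. Genes with an 8-mer, the kind of site that all 5 members hold, gave -0.0074 in that contrast. The unadjusted median was -0.076 with a site and -0.0064 without, and without hemizygous 1 these were 0.015 and 0.0088. Adjusted in the same way, the members were at -0.11 for FBXW7, -0.12 for MAP2K4, 0.07 for BCL2L11, -0.23 for ITGA5 and -0.14 for ITGAV. Adjustment left 4 of 5 members below 0 and moved BCL2L11 above it.

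**Figure D4:**
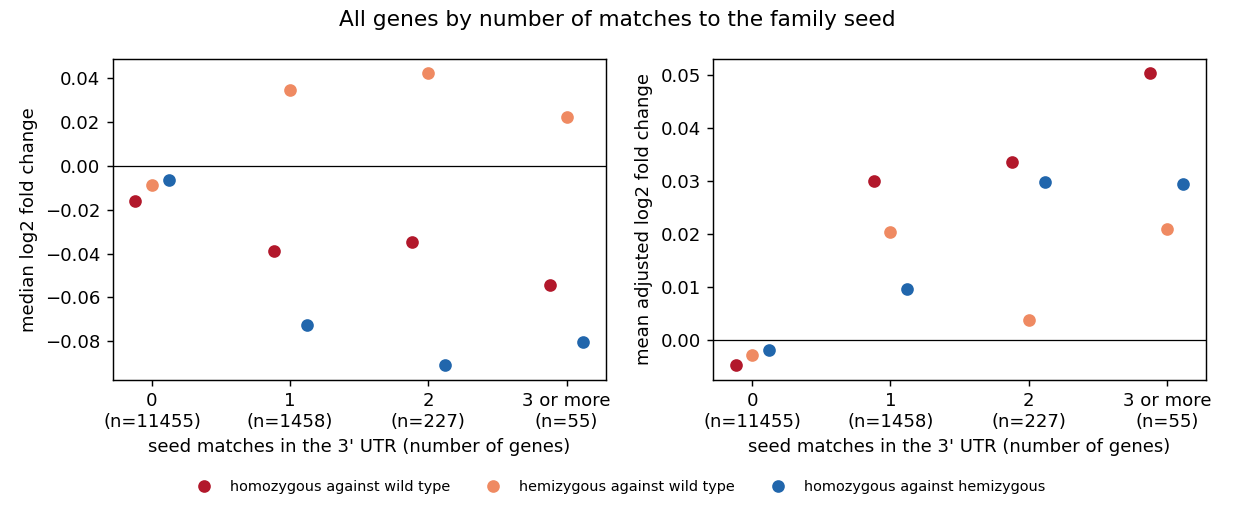
All genes with a 3' UTR by their number of matches to the family seed (x axis), with the median log2 fold change on the left and the mean after adjustment for 3' UTR length, G and C content and expression on the right, for homozygous against wild-type, hemizygous against wild-type and homozygous against hemizygous cells. The adjusted means for homozygous against wild type run from -0.0047 with no match to 0.050 with 3 or more, while the unadjusted medians run from -0.016 to -0.054. The adjusted means for hemizygous against wild type show no steady rise. They are -0.0028 with no match, 0.020 with 1, 0.0039 with 2 and 0.021 with 3 or more.

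The spread of values over number of sites has to be read with 3' UTR length, which had a median of 1230 bases in genes with no match, 3032 with 1, 4290 with 2 and 7981 with 3 or more. The group with 3 or more holds 55 genes. FBXW7, MAP2K4, BCL2L11 and ITGAV belong to the 227 genes with 2 matches and ITGA5 to the 1458 genes with 1.

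The partners of FBXW7 in the SCF ligase and its regulators were measured for 9 of 10 listed genes. None was called by edgeR in any contrast, and the median log2 difference in homozygous against hemizygous cells was -0.13, or 0.059 without hemizygous 1. USP28, a deubiquitinase that opposes FBXW7, averaged 297.1 ± 25.4 CPM in homozygous, 280.5 ± 9.33 in hemizygous and 265.3 ± 7.79 in wild-type cells. CAND1, which exchanges the F-box proteins on cullin 1, averaged 223.2 ± 34.1 CPM in homozygous, 283.1 ± 92 in hemizygous and 274.6 ± 60.6 in wild-type cells. All 11 listed substrates of FBXW7 were measured and none was called. Their median was -0.09 in homozygous against hemizygous cells, or 0.094 without hemizygous 1. MCL1, a survival protein, averaged 431.8 ± 43.2 CPM in homozygous, 434.4 ± 41.7 in hemizygous and 403.2 ± 50.6 in wild-type cells. GTGCAAT is in the searched 3' UTR of 2 of these 11 substrates, MCL1 and AURKA, beside 13.2% of all genes searched. Of the 9 ligase genes measured, 4 hold it: USP28, CAND1, FBXW2 and BTRC. At the messenger level substrates of a ubiquitin ligase need not follow it.

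Of the JNK pathway around MAP2K4, 23 of 24 genes were measured, none was called, and the median in homozygous against hemizygous cells was -0.10, with 8 above 0 and 15 below, or -0.001 without hemizygous 1. MAP3K7, a kinase upstream of MKK4, averaged 130.8 ± 0.992 CPM in homozygous, 143.9 ± 24.9 in hemizygous and 135.8 ± 21.3 in wild-type cells. SPAG9, a JNK scaffold, averaged 88.6 ± 9.59 CPM in homozygous, 99.3 ± 15.8 in hemizygous and 98.7 ± 10.6 in wild-type cells. The lowest of the list, MAPK8IP2 and MAPK10, are genes best known from neurons and had under 5 CPM.

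The BCL2 family around BIM showed 14 of 15 genes, none called. Its median in homozygous against hemizygous cells was 0.07, or 0.033 without hemizygous 1, and its difference from the 5 members was not tested. PMAIP1, the BH3-only protein NOXA, averaged 219.2 ± 20.4 CPM in homozygous, 240.2 ± 28.6 in hemizygous and 179.5 ± 65.5 in wild-type cells. HRK, another BH3-only gene, averaged 7.16 ± 0.31 CPM in homozygous, 6.19 ± 1.27 in hemizygous and 8.37 ± 0.219 in wild-type cells. BIK averaged 2.70 ± 1.44 CPM in homozygous, 1.82 ± 0.915 in hemizygous and 1.59 ± 0.176 in wild-type cells, a level at which single libraries weigh heavily.

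The integrin genes around ITGA5 and ITGAV were measured as subunits (13 of 18), matrix ligands (15 of 16) and adhesion complex proteins (17 of 18), and edgeR called none. Below 0 in homozygous against hemizygous cells lay 10 of 13 subunits, 12 of 15 ligands and 15 of 17 adhesion complex genes, with medians of -0.15, -0.34 and -0.12. ITGB1, the common partner of ITGA5 and of ITGAV, averaged 452.3 ± 109 CPM in homozygous, 571.8 ± 246 in hemizygous and 612.3 ± 232 in wild-type cells. ITGB5, a partner of ITGAV, averaged 317.0 ± 42.9 CPM in homozygous, 344.0 ± 58.9 in hemizygous and 341.1 ± 110 in wild-type cells. FN1, which encodes the fibronectin that both receptors bind, averaged 557.3 ± 90.1 CPM in homozygous, 607.1 ± 97.7 in hemizygous and 486.1 ± 27.6 in wild-type cells. LAMC1, a laminin chain, averaged 224.8 ± 38.9 CPM in homozygous, 284.7 ± 104 in hemizygous and 291.4 ± 59.6 in wild-type cells. VCL, the actin linker vinculin, averaged 453.9 ± 74.9 CPM in homozygous, 678.3 ± 343 in hemizygous and 731.3 ± 322 in wild-type cells. GTGCAAT is in the searched 3' UTR of 3 of the 13 subunits, 1 of the 15 ligands and 2 of the 17 adhesion complex genes. VCL is 1 of those 2. Without hemizygous 1 the list medians were -0.008 for subunits, 0.016 for ligands and 0.107 for the adhesion complex, and ITGB1 and VCL differed by 0.18 and 0.059 on the log2 scale. Summed fibroblast markers were likewise lowest in homozygous libraries. THY1, the highest of them, was not, at 363.5 ± 43.7 CPM in homozygous, 356.8 ± 31.6 in hemizygous and 444.4 ± 33.9 in wild-type cells. The part of these markers in the integrin lists was not tested.

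**Figure D5:**
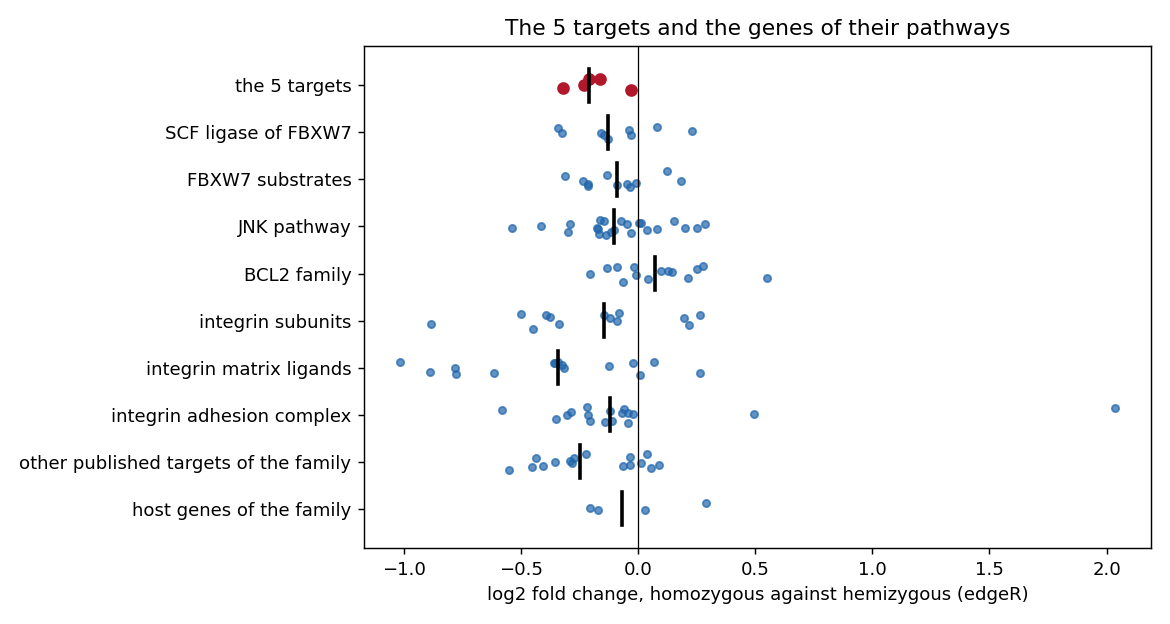
Log2 fold change in homozygous against hemizygous cells (x axis, edgeR) of the 5 targets, in red, and of each gene in the lists around them, in blue, with a black bar at the median of each list. The median of the 5 targets is -0.21, those of the lists run from -0.34 for the integrin matrix ligands to 0.07 for the BCL2 family, and the point at 2.04 is ZYX, whose libraries spread widely.

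Other published targets of the family were measured for 16 of 20 listed genes, and 11 of the 16 hold GTGCAAT in the 3' UTR searched, beside 13.2% of all. As among the 5 members, most lay below 0 in homozygous against hemizygous cells, 12 of 16 with a median of -0.25 (0.019 without hemizygous 1). None was called by edgeR in that contrast, where 0% of all genes were called. SIRT1, a protein deacetylase, averaged 190.3 ± 24.0 CPM in homozygous, 194.9 ± 9.68 in hemizygous and 157.5 ± 21.7 in wild-type cells, though its searched 3' UTR holds no match. ATP2A2, a calcium pump of the endoplasmic reticulum, averaged 317.7 ± 78.7 CPM in homozygous, 386.2 ± 136 in hemizygous and 367.5 ± 85.6 in wild-type cells. NOX4 and CDC42 were under 5 CPM, which for CDC42 is low for a gene in general use, so its count is uncertain. In the 3' UTR searched NOX4 holds a match, while ATP2A2 and CDC42 hold none.

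The host transcripts of the family were measured for 4 of 6 listed genes, and none was called. MIR302CHG, the precursor of miR-367 and the miR-302 microRNAs, averaged 475.0 ± 202 CPM in homozygous, 533.8 ± 49.1 in hemizygous and 575.3 ± 70.1 in wild-type cells. MIR17HG, the precursor that holds a miR-92a copy, averaged 29.5 ± 10.7 CPM in homozygous, 24.1 ± 6.86 in hemizygous and 20.0 ± 4.89 in wild-type cells. MCM7, a replication helicase subunit whose intron holds miR-25, averaged 362.2 ± 17.4 CPM in homozygous, 354.5 ± 2.07 in hemizygous and 391.4 ± 10.3 in wild-type cells. Host transcript levels do not give the level of the mature microRNAs.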

How the data were processed

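RNA was sequenced from 6 libraries of H1 cells, 2 for each of 3 genotypes, from total RNA with the TruSeq RNA kit v2, per the labels' protocols; that kit does not keep strand. Cutadapt, HISAT2 and the hg38 build are named in the submitters' processing notes, without versions or settings. Which program did the counting is not given in the sources used here. Values were deposited as raw, unnormalized counts. Every gene has at least 0.586 CPM in 3 libraries, so low genes were left out before deposit and are not analysed here.

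Counts were fitted with edgeR 4.0.16 in R 4.3.3 (TMM, filterByExpr, which removed 0 genes, quasi-likelihood test, all 6 libraries, genotype only, 3 residual degrees of freedom, Benjamini-Hochberg adjustment over 16199 genes, threshold 0.05). CPM are scaled by TMM. Alternatives were DESeq2 1.42.0, limma-voom (limma 3.58.1), other scalings, filters, the replicate number as a block, and each library left out.

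Genes were matched to GENCODE release 29 by symbol or ID (15913 of 16199), and 13195 had a 3' UTR of at least 30 bases. Log2 fold changes were adjusted for 3' UTR length, G and C content and mean expression by splines with 3 degrees of freedom each. No 2 libraries were copies of each other. The labels do not say what replicate numbers mark. Libraries of the same number deviated together from their genotype means, with correlations across genes of 0.355 for homozygous and wild type, 0.738 for hemizygous and wild type and 0.474 for homozygous and hemizygous. As there are only 2 numbers, the block was kept as an alternative. Counting errors cover sampling of reads only, which carry no molecular identifiers.

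The 5 members and the lists were chosen with earlier results of these data known. Named genes were the members, the 2 highest and 2 lowest of each list by mean CPM (of which some are given here), and the 3 genes most like each member by correlation, of which 1 is not reported here. The lists of marker and pathway genes come from textbook knowledge and the literature.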

Additional observations from a re-analysis of the deposited data

How the results depend on the processing

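With 2 libraries a genotype, 1 library decided most signs. Leaving out 1 library at a time put the homozygous against hemizygous log2 difference between -0.447 and 0.076 for MAP2K4, between -0.143 and 0.074 for BCL2L11 and between -0.582 and 0.001 for ITGAV, against -0.423 to -0.006 for FBXW7 and -0.214 to -0.11 for ITGA5. The values above 0 came without hemizygous 1 (0.076 for MAP2K4, 0.065 for BCL2L11, 0.001 for ITGAV) and, for BCL2L11, without homozygous 2 (0.074). Of 70 alternative values of the members in this contrast, 66 kept their sign, and none was called in fits with 2 libraries in both genotypes. All 4 reversals came from leaving out an edited library. Not every setting could change a sign: the fit with no filter was the same as the main fit, since filterByExpr removed 0 genes. Genes called over the table were 10 in homozygous against wild-type, 7 in hemizygous against wild-type and 10 in homozygous against hemizygous cells with DESeq2, against 0 with edgeR. Leaving out a library gave 0 to 1, 0 to 2 and 0 to 3 calls in these contrasts. Where a genotype was left with 1 library, it was assumed to vary like the others. The replicate block gave 1 call in hemizygous against wild-type cells, 1 in homozygous against hemizygous cells and 0 in homozygous against wild-type cells. With the block the members differed by -0.22 for FBXW7, -0.19 for MAP2K4, -0.03 for BCL2L11, -0.16 for ITGA5 and -0.29 for ITGAV in homozygous against hemizygous cells, and none was called. Of 378 list medians, 356 moved by less than the spread between replicates, and no list gene count changed. The cause was not tested. Counting error, at most 2.76% for the members, is about the size of the gaps that separate homozygous from wild-type cells for BCL2L11 and ITGA5. The gaps to hemizygous 2 were wider. For BCL2L11 it had 37.7 CPM against 35.5 in wild type 1, and for ITGA5 44.4 against 41.3 in homozygous 1.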
